A study of Mus musculus with 8 samples.

Results

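Gene expression in the lymph node (LN) of untreated mice that lack the histamine H3 receptor (H3RKO) was compared with that of untreated wild type (WT) mice. The 4 arrays labelled as untreated controls, 2 for each genotype, were taken from the 8 arrays of the series. The other 4 arrays hold LN taken 24 h after complete Freund's adjuvant (CFA) or after CFA with pertussis toxin (PTX), with 1 array per genotype and injection, and were used here only to see whether an untreated difference had the same direction in other animals. Each array holds the pooled RNA of no fewer than 3 mice of both sexes at 8 weeks of age, so the spread between the 2 arrays of a genotype is a spread between pools. All mice are labelled C57Bl/6. H3RKO mice carry the constitutive Hrh3 tm1Twl allele, which by the strain name was made on a 129P2 background and moved to C57BL/6, and lack the receptor in every cell from birth. They came from a colony kept at the authors' university, whereas WT mice were purchased, so genotype and colony cannot be told apart.

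The H3 receptor, encoded by Hrh3, is found mainly on neurons. It sits on presynaptic endings, where it holds back the release of histamine and of other transmitters, noradrenaline among them. LN receive sympathetic fibres along their vessels, and the study asked whether loss of the receptor alters what LN cells express before any immune challenge. A resting LN consists mostly of B cells and T cells on a fibroblast scaffold, with macrophages and dendritic cells along its sinuses, and it is embedded in fat.

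Values are log2 signal per probe set after RMA, a method that corrects, normalizes and summarizes the probes of a set on all arrays together. The untreated arrays had medians of 7.94 to 7.99. A gene is shown by the brightest probe set that is paired with it alone, unless another is named, and a difference is always the H3RKO mean minus the WT mean on the log2 scale. "Apart" means that both H3RKO arrays lay outside both WT arrays on the same side. An exact permutation test of 2 arrays against 2 cannot go below p = 0.333, so apart is a description. A gene is said to meet the criterion where limma gave an unadjusted p under 0.05 and the fold was over 2. These limits are those of the study, but its p-values came from an ANOVA in Partek and not from limma. With no variance moderation in the fit used here, 8 of the 22 genes met both limits. Among them were S100a8, S100a9, Fpr2, Clec4d, Chil3 and Retn. For these except Chil3 the unmoderated p-values equal, after rounding, those printed in the study. Slfn4, Krt19, Dmbt1, Cyp2e1, Ido1, Cxcl15, Tlcd4, Aldh1a2, Mt2, Timp1, Tnnc2, Acta1 and Myh4 met both limits only with moderation.

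All 4 untreated arrays were LN by their markers. Ms4a1 and Cd79a, which mark B cells, measured 12.97 to 13.09 and 12.63 to 12.72, and the T cell receptor chain gene Cd3g measured 11.47 to 11.74. Glycam1, made by high endothelial venules, measured 13.16 to 13.43 and the follicle chemokine gene Cxcl13 12.63 to 12.96. Transcripts of neighbouring tissue varied between pools of the same genotype. The mean of 19 salivary and lacrimal gland genes was 8.15 and 10.93 in WT and 10.38 and 11.13 in H3RKO, so that WT replicate 1 stood apart from the other 3 arrays. The mean of 29 epithelial genes was highest in WT replicate 2, at 6.91 against 6.19 to 6.53 in the other 3 arrays. The 3′ minus 5′ signal of the actin and Gapdh control probe sets, a measure of RNA integrity, averaged 0.187 and 0.307 in WT and 0.186 and 0.164 in H3RKO. A balance of Y-linked genes against Xist was −4.46 and −3.70 in WT and −3.85 and −4.88 in H3RKO, and the genotypes overlapped. With the sex balance as a covariate 29 genes met the criterion, 21 of them shared with the 22 found without it. The part of the other measures in the differences was not tested.

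The targeted gene, Hrh3, measured 6.64 and 6.56 in WT and 7.20 and 7.21 in H3RKO, a difference of 0.60 (SE 0.09, limma adjusted p = 0.591). The signal was higher, not lower, in the knockout, and it was also higher in the H3RKO array after CFA (7.29 against 6.66) and after CFA and PTX (7.25 against 6.63). Over all 8 arrays this was the widest separation among the 12393 genes, with 0.54 between the lowest H3RKO and the highest WT array. The signal is low on the array, with 36.8% of probe sets dimmer. Where its probes lie relative to the deleted sequence is not given in the sources used here, so it does not check the genotype.

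Genes that lie close to Hrh3 on chromosome 2 tend to be inherited with the engineered allele. How far the donor sequence extends in these mice is not given in the sources used here. Among the 20 measured genes on each side, 12 of 40 (30%) were apart in untreated LN, against 33.2% of all genes. Over all 8 arrays 4 of the 40 were apart, which is 10% against 1.73% of the other 925 genes placed on the chromosome. The 4 were Osbpl2 (0.13), which encodes an oxysterol-binding protein, Ythdf1 (0.11), a reader of m6A in mRNA, Arfgap1 (−0.26), which acts in vesicle traffic, and Col20a1 (0.43), a collagen chain. All 4 lie on the same side of Hrh3. Over all 8 arrays the genotypes were only 0.012 from each other in Osbpl2 and 0.040 in Ythdf1. For these 4 genes the deletion and any flanking donor sequence cannot be told apart.

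Other genes of histamine biology did not share 1 direction. Hdc, which encodes the enzyme that makes histamine, measured 6.56 and 6.36 in WT and 7.40 and 7.06 in H3RKO, a difference of 0.78 (SE 0.14, limma adjusted p = 0.916). Both H3RKO arrays were above both WT arrays, and the difference shrank to 0.10 after CFA and 0.11 after CFA and PTX. Aoc1, the diamine oxidase that breaks histamine down outside cells, measured 6.95 and 7.56 in WT and 6.58 and 6.70 in H3RKO, a difference of −0.62. The H4 receptor gene Hrh4, used by granulocytes and mast cells, differed by −0.39 and was also apart. Hrh1 (−0.16), Hrh2 (−0.08), Hnmt (−0.09), the methyltransferase that inactivates histamine inside cells, and Maoa (0.08) overlapped between the genotypes. Hdc is also a gene of mast cells, basophils and neutrophils. Of 15 mast cell and basophil genes, 2 were apart and higher (Hdc and Mcpt4) and 3 apart and lower (Il3ra, Il4 and Kit). These shares are close to those of all genes, 12.5% apart and higher and 20.6% apart and lower. The mast cell protease genes Cpa3, Cma1 and Tpsb2 overlapped.

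Across the array most genes barely differed. The median difference over 12393 genes was −0.02 and the median size of a difference 0.0732, whereas the larger of the 2 replicate gaps had a median of 0.158. The 2 WT pools differed from each other more than any H3RKO pool did from a WT pool, with a standard deviation over probe sets of 0.264 against 0.210 to 0.259 between genotypes and 0.189 between the H3RKO pools. Apart and higher in H3RKO were 1554 genes (12.5%), and apart and lower 2557 (20.6%). Of these 4111 genes, 2912 differed by less than 0.2 on the log2 scale. In 2669 genes (21.5%) the genotypes were apart by a difference larger than either replicate gap.

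At a larger size the list was short. Over 1.5-fold there were 115 genes, of which 70 were apart. Over 2-fold there were 40, of which 22 were apart and 18 overlapped. The criterion was met by 34 probe sets and 22 genes, 13 of them higher (0.105%) and 9 lower (0.0726%) in H3RKO. With probe sets of a mean log2 signal under 6 left out, 15 genes met it. The others, Tlcd4, Myh4, Cxcl15, Ido1, Vcan, Tnnc2 and Dmbt1, are low on the array, with 8.4% to 24.1% of probe sets dimmer. In 20 of the 22 the difference exceeded both replicate gaps; the exceptions were Tlcd4 and the brightest Ighm probe set. After adjustment over 22626 probe sets, 2 remained under 0.05 (0.00884%), and neither is paired with a gene in the annotation used. Among genes with an unadjusted limma p under 0.05 by their brightest probe set, those nearest to the fold of 2 were Mt2 (1.10) and Fpr2 (1.05) inside and Mmp8 (0.99), Ifitm6 (0.99) and Foxa1 (−0.98) outside.

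**Figure D1:**
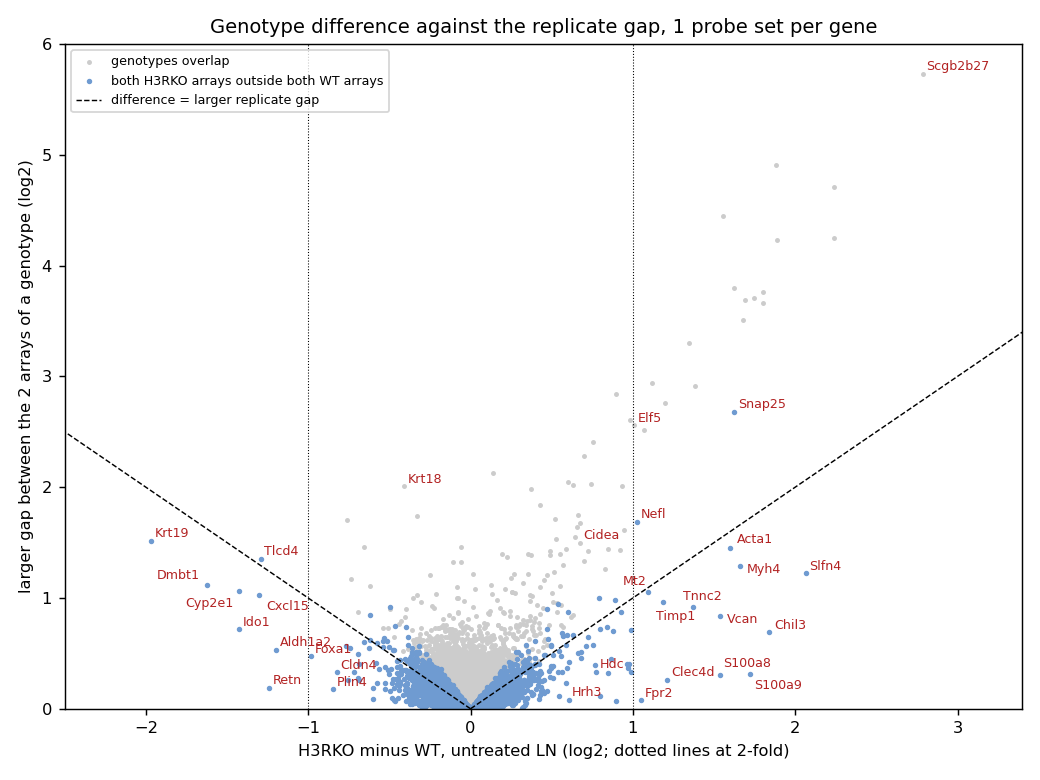
Each point is 1 gene, with the H3RKO minus WT difference in untreated LN on the x axis (log2) and the larger gap between the 2 arrays of a genotype on the y axis (log2). Blue points are apart, and the neutrophil genes S100a8, S100a9, Fpr2 and Clec4d lie far below the dashed line where difference and gap are equal, whereas Scgb2b27 and other grey points over 2-fold have gaps larger than their differences.

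Genes of neutrophils and inflammatory monocytes were among the largest differences on the higher side in untreated H3RKO LN. The alarmin S100a9 measured 8.85 and 9.17 in WT and 10.79 and 10.68 in H3RKO, a difference of 1.72 (SE 0.13, limma adjusted p = 0.0924). Its partner S100a8, with which it forms calprotectin, differed by 1.53 (SE 0.13, limma adjusted p = 0.0924). In both genes the larger replicate gap was 0.31 and the genotypes were far apart. In bulk tissue, more cells of a type and more RNA per cell cannot be told apart.

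Granule genes were not uniform. Of 17 granule genes, 10 were apart and higher and 2 apart and lower, against 12.5% and 20.6% of all genes. Their median difference was 0.26 against −0.02 over all genes. The lowest was Hp, the haptoglobin gene, at 10.34 and 11.24 in WT and 10.51 and 10.07 in H3RKO, a difference of −0.50 with the genotypes overlapping. Those of the secondary and tertiary granules, filled late in neutrophil maturation, are given apart from the azurophil ones, a division made after their values were seen. The late-granule genes named next are all higher, and not every such gene of the list is named, so the 2 groups are not compared. Ngp, neutrophilic granule protein, measured 8.38 and 8.34 in WT and 9.45 and 9.0 in H3RKO. The collagenase gene Mmp8 differed by 0.99, Ngp by 0.86, the siderophore-binding Lcn2 by 0.71, the cathelicidin gene Camp by 0.60 and the lactoferrin gene Ltf by 0.59, and each was apart. Genes of the azurophil granules, filled early in the bone marrow, had differences between −0.37 (Prtn3, proteinase 3) and 0.11 (Ctsg, cathepsin G), with the elastase gene Elane at −0.17 and the myeloperoxidase gene Mpo at 0.07.

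Surface receptors of neutrophils mostly had positive differences. Of 20 measured, 19 had a positive difference and 11 were apart and higher, against 12.5% of all genes. None was apart and lower, and the median was 0.28. Fpr2, a receptor for formylated peptides, measured 7.06 and 7.13 in WT and 8.11 and 8.18 in H3RKO, a difference of 1.05 (SE 0.09, limma adjusted p = 0.0924). Clec4d, a lectin that binds mycobacterial glycolipid, measured 5.61 and 5.67 in WT and 6.98 and 6.72 in H3RKO, a difference of 1.21 (SE 0.11, limma adjusted p = 0.148). Both genes met the criterion, and in both the replicates were close and the genotypes apart. The chemokine receptor gene Ccr1 (0.85), the lectin gene Clec4e (0.68), the Fc receptor gene Fcgr4 (0.60), Trem3 (0.56) and the G-CSF receptor gene Csf3r (0.44) were apart below that size, whereas Cxcr2 (0.00) and Itgam (0.03), also borne by neutrophils, were level.

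Cytokines and secreted products of myeloid cells did not share 1 direction. Of 22 genes, 5 were apart and higher and 2 apart and lower, against 12.5% and 20.6% of all genes, and the median was −0.05. Chil3, a chitinase-like protein of monocytes and alternatively activated macrophages, measured 6.63 and 6.88 in WT and 8.94 and 8.25 in H3RKO, a difference of 1.84 (SE 0.23, limma adjusted p = 0.425). The versican gene Vcan, a proteoglycan made by inflammatory monocytes, measured 4.66 and 5.04 in WT and 6.80 and 5.97 in H3RKO, and 2 of its 3 probe sets met the criterion. The interleukin-1 gene Il1b followed at a smaller size, at 8.22 and 8.01 in WT and 8.69 and 9.08 in H3RKO. Il1f9 (0.43) and the antagonist gene Il1rn (0.42) of the same family were apart as well. The 2 genes apart and lower were Ccl3 (−0.09) and Chil4 (−0.22). Ccl2, Il6 and Tnf overlapped between the genotypes. Among 22 macrophage genes the median was −0.05. Apart and higher were 4, against 12.5% of all genes, from Cd68 (0.09) to the high-affinity Fc receptor gene Fcgr1 (0.56). Only the mannose receptor gene Mrc1 (−0.12) was apart and lower, against 20.6% of all genes.

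Other genes that met the criterion on the higher side were Timp1 and Mt2. Timp1, an inhibitor of metalloproteinases, measured 7.08 and 7.45 in WT and 8.93 and 7.97 in H3RKO, a difference of 1.18. Mt2, a metallothionein induced by metals and glucocorticoids, measured 10.45 and 10.24 in WT against 11.96 and 10.91 in H3RKO, a difference of 1.10. In both, H3RKO replicate 1 was the highest array, and without it the differences were 0.70 and 0.57. The chemokine gene Ccl9 met the criterion with a probe set at 1.04, and its brightest probe set differed by 0.97.

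**Figure D2:**
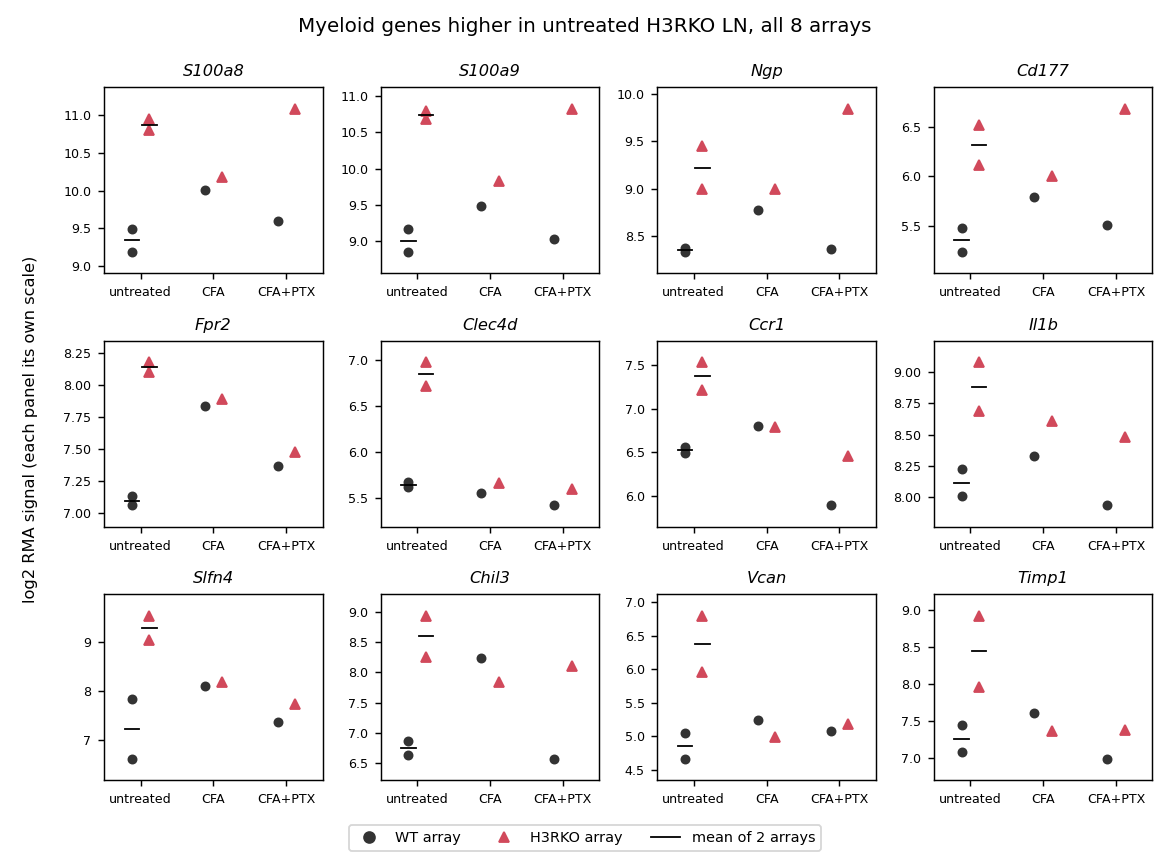
Log2 RMA signal (y axis) of 12 myeloid genes in each of the 8 arrays, by treatment on the x axis, with WT and H3RKO as separate colours and 1 point per array. In untreated LN every panel has both H3RKO points above both WT points, and S100a8, S100a9, Ngp, Cd177 and Il1b keep all 4 H3RKO points above all 4 WT points.

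Interferon-induced genes had a positive difference in untreated H3RKO LN in nearly every case, though a small one. Of 29 measured, 28 had a positive difference and 16 were apart and higher, against 12.5% of all genes. None was apart and lower, and the median difference was 0.31. No member reached a fold of 2. Ifit3 and Ifit1, which encode proteins that bind viral RNA, differed by 0.88 and 0.84. Cxcl10, a chemokine that draws CXCR3-bearing T cells, measured 9.71 and 9.60 in WT and 10.50 and 10.41 in H3RKO, a difference of 0.80 (SE 0.09, limma adjusted p = 0.298). Rsad2, the antiviral enzyme viperin, differed by 0.76 and Ifit2 by 0.66.

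The separation of the list rested on small margins. Its mean was 9.58 and 9.89 in WT and 9.94 and 10.30 in H3RKO, so that the upper WT pool and the lower H3RKO pool were close. Leaving out 1 array moved the median to between 0.15 (without H3RKO replicate 2) and 0.56 (without H3RKO replicate 1). Without WT replicate 1 it was 0.19. Ifit3 showed the same layout, at 9.36 and 10.06 in WT and 10.35 and 10.83 in H3RKO. In Cxcl10 the larger replicate gap was only 0.11. In the injected pairs the median of the list was −0.11 after CFA and −0.22 after CFA and PTX, and only 1 of the 29 genes kept its sign in both.

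Slfn4, a Schlafen gene of monocytes and macrophages that interferon induces, had the largest difference of any gene that met the criterion. Without variance moderation it did not meet both limits. It measured 6.62 and 7.84 in WT and 9.05 and 9.54 in H3RKO, a difference of 2.07 (SE 0.40, limma adjusted p = 0.916). The WT pools differed by 1.22, and the genotypes were apart. After CFA the difference was 0.09 and after CFA and PTX 0.36. Slfn1, a family member of T cells, differed by 0.43 and was apart, and the median over 5 Schlafen genes was 0.22. With 1 array left out that median ranged from 0.0019, without H3RKO replicate 2, to 0.44, without H3RKO replicate 1, and it was 0.04 without WT replicate 1 and 0.40 without WT replicate 2.

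Promoters of the interferon list carry the core of the element that interferon-activated factors bind, which is shown here because the list had nearly 1 sign. The core searched was GAAANNGAA, read as TTCNNTTTC on the other strand, in the 250 bases before the start of each gene in RefSeq (GRCm38.p6). It occurred in 7.13% of 32851 promoter entries and, counted by gene as for the list, in 7.56% of 9887 measured genes. Of the 21 members with a promoter entry, 15 held it, 10 of 13 apart members and 5 of 8 others. A match is a run of letters and no measure of binding. Stretches of 4 members around 1 or more matches are printed along the strand of the gene, with the core in capitals, for Ifit3 (chr19:34583402-34583460, plus strand), Ifit1 (chr19:34640755-34640838, plus strand), Cxcl10 (chr5:92349069-92349127, minus strand) and Rsad2 (chr12:26456538-26456596, minus strand). Overlapping cores run into each other in Ifit1, and Ifit3 has 1 more match in its 250 bases, outside the stretch shown.
Ifit3: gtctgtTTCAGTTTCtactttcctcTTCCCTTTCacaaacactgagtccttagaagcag
Ifit1: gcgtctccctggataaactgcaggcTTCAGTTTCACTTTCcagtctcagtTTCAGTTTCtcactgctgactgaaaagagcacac
Cxcl10: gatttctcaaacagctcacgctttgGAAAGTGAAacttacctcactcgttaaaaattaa
Rsad2: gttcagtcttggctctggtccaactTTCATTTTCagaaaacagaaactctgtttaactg

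Heat shock genes, chaperones that refold damaged protein, formed a further group with small positive differences. Of 15 measured, 14 were positive, 8 were apart and higher against 12.5% of all genes, and the median was 0.13. Hsph1 measured 10.32 and 10.46 in WT and 10.81 and 10.87 in H3RKO, a difference of 0.45. Hspb1 (0.40), Hspa4l (0.37) and Hsp90aa1 (0.28) followed. The list mean was 10.32 and 10.40 in WT against 10.51 and 10.56 in H3RKO, and all 4 injected arrays were below these values, at 10.15 to 10.25. The core GAANNTTC, which reads the same on both strands, was in 6.69% of promoter entries and in 6.59% of measured genes. It was in 6 of the 12 members with a promoter entry, 2 of 5 apart members and 4 of 7 others.

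Genes lower in untreated H3RKO LN included some of epithelium and fat. Krt19, a keratin of simple epithelium, measured 6.89 and 8.40 in WT and 5.45 and 5.91 in H3RKO, a difference of −1.97 (SE 0.48, limma adjusted p = 0.916). The WT pools differed by 1.52, and both were above all 4 H3RKO arrays of the series. Dmbt1, a mucosal scavenger protein, measured 6.02 and 7.14 in WT and 4.81 and 5.10 in H3RKO, and Cxcl15, a chemokine of lung and gland epithelium, 5.25 and 6.28 against 4.36 and 4.56. Each met the criterion, and in each WT replicate 2 was the highest untreated array. Without it the differences were −1.21 for Krt19, −1.06 for Dmbt1 and −0.79 for Cxcl15, the last short of a 2-fold difference.

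Smaller epithelial differences had the same layout. The tight junction gene Cldn4 differed by −0.82 and the luminal transcription factor gene Foxa1 by −0.98, both apart over all 8 arrays. Of 29 epithelial genes, however, 8 were apart and lower and 1 apart and higher, against 20.6% and 12.5% of all genes. The median was −0.13, and without WT replicate 2 it was 0.01. Krt18, the usual partner of simple keratins, measured 6.86 and 8.86 in WT and 6.98 and 7.92 in H3RKO and overlapped. Tlcd4, a membrane protein gene, met the criterion at −1.29, but the genotypes were only 0.16 from each other and its replicate gap was 1.35.

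Of other genes at the criterion, Ido1, an enzyme that degrades tryptophan, measured 5.78 and 6.50 in WT and 4.71 in both H3RKO arrays, a difference of −1.43 (SE 0.23, limma adjusted p = 0.758). Its signal is low on the array, with 20.6% of probe sets dimmer. Aldh1a2, which makes retinoic acid, measured 7.41 and 6.88 in WT and 5.69 and 6.22 in H3RKO, a difference of −1.20. Both met the criterion and both were apart. Aldh1a2 fell short of a 2-fold difference without WT replicate 1 or without H3RKO replicate 1, at −0.93 in either case. The chemokines of migratory dendritic cells, Ccl17 and Ccl22, differed by −0.41 and −0.40 and were apart. Against that, the lectin gene Cd209a differed by 0.50. Neither Ido1 nor Aldh1a2 is on the dendritic cell list. Of its 20 genes 4 were apart and lower, a share close to the 20.6% of all genes, 3 were apart and higher, and the median was −0.02.

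White fat genes were mostly lower. Of 28 measured, 22 had a negative difference and the median was −0.23. Apart and lower were 14 and apart and higher 3, against 20.6% and 12.5% of all genes. Retn, which encodes the adipocyte hormone resistin, measured 10.80 and 10.61 in WT and 9.51 and 9.42 in H3RKO, a difference of −1.24 (SE 0.10, limma adjusted p = 0.0924). The lipid droplet gene Plin4 measured 10.52 and 10.34 in WT and 9.60 and 9.57 in H3RKO, and the adiponectin gene Adipoq 12.15 and 12.16 against 11.51 and 11.59. In all 3 genes the larger replicate gap was at most 0.19 and the genotypes were apart. The direction was not uniform, since the leptin gene Lep (0.49), Npr3 (0.35) and Mest (0.26) were apart and higher. Cyp2e1, a cytochrome of liver and fat, met the criterion at −1.43 with 11.68 and 11.26 in WT and 10.58 and 9.51 in H3RKO. Without H3RKO replicate 2 it was −0.89.

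The mean of the list was 10 and 9.76 in WT and 9.78 and 9.57 in H3RKO, so the genotypes overlapped by a little. The fat genes did not keep 1 direction in the injected pairs. The median of the list was 0.37 after CFA and −0.13 after CFA and PTX. Retn differed by 0.16 and −1.46 there and Plin4 by 0.50 and −0.09. Leaving out 1 array moved the untreated median to between −0.34 (without H3RKO replicate 1) and −0.13 (without WT replicate 1 or without H3RKO replicate 2).

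**Figure D3:**
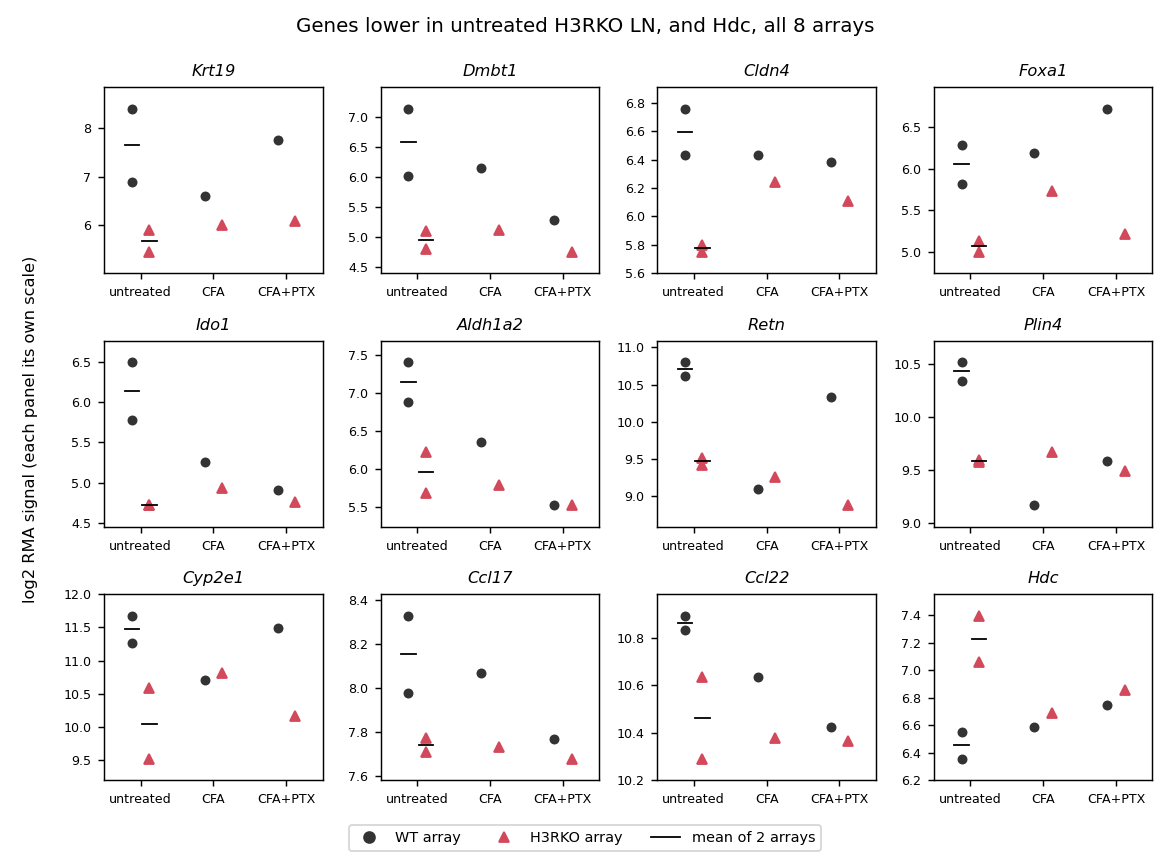
Log2 RMA signal (y axis) of 12 genes in each of the 8 arrays, by treatment on the x axis, with WT and H3RKO as separate colours and 1 point per array. In untreated LN the H3RKO points of all panels except Hdc lie below the WT points, and Krt19, Dmbt1, Cldn4 and Foxa1 keep all 4 H3RKO points below all 4 WT points.

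The muscle genes that met the criterion were highest in H3RKO replicate 1 among the untreated arrays. Myh4, the fastest myosin heavy chain, measured 3.71 and 3.88 in WT and 6.10 and 4.81 in H3RKO, and skeletal actin, Acta1, 5.09 and 5.52 against 7.63 and 6.18. The fast troponin gene Tnnc2 differed by 1.37, and all 3 met the criterion. Without H3RKO replicate 1 Myh4 differed by 1.01, Acta1 by 0.87 and Tnnc2 by 0.91. All 3 were positive after CFA and negative after CFA and PTX. The 29 skeletal muscle genes had a median of 0.02. Of them 8 were apart and higher and 6 apart and lower, against 12.5% and 20.6% of all genes.

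Some neuronal transcripts were high in 1 pool. Snap25, a protein of synaptic vesicle fusion, measured 3.23 and 3.11 in WT and 6.14 and 3.46 in H3RKO. The neurofilament gene Nefl measured 3.44 and 3.66 in WT and 5.42 and 3.73 in H3RKO. Both were apart and over 2-fold, yet neither met the criterion, and the replicate gaps of 2.68 and 1.69 exceeded the differences of 1.62 and 1.02. They were named after their values were seen. Some genes of noradrenergic fibres had small differences of the other sign: Dbh (−0.22), the noradrenaline transporter gene Slc6a2 (−0.19) and Th (−0.12) were each apart and lower. Of 20 nerve genes 5 were apart and lower and 3 apart and higher, against 20.6% and 12.5% of all genes. The median over the 20 was −0.09.

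Gland and brown fat genes had large differences that did not separate the genotypes. The 19 gland genes had a median of 1.39 with none apart, and without WT replicate 1 the median was −0.10. Scgb2b27, a secretoglobin, measured 4.98 and 10.71 in WT and 9.81 and 11.45 in H3RKO. The 11 brown fat genes had a median of 0.21, again with none apart, and −0.28 without WT replicate 2.

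**Figure D4:**
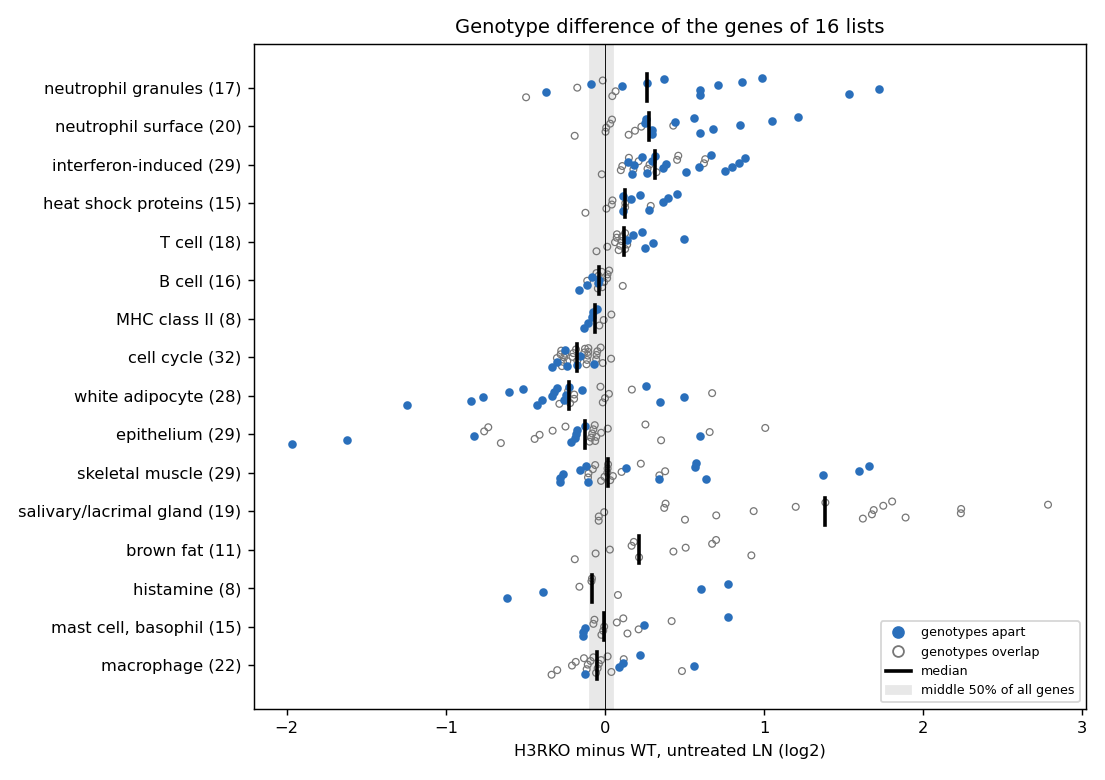
H3RKO minus WT difference in untreated LN (x axis, log2) of each gene of 16 lists (y axis), with 1 point per gene, filled where the genotypes are apart, a bar at the median and a grey band over the middle 50% of all genes. Neutrophil surface, interferon and heat shock genes lie almost wholly to the right of 0 and cell cycle genes to the left, whereas the gland genes, with a median of 1.39, have no gene whose genotypes are apart.

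**Figure D5:**
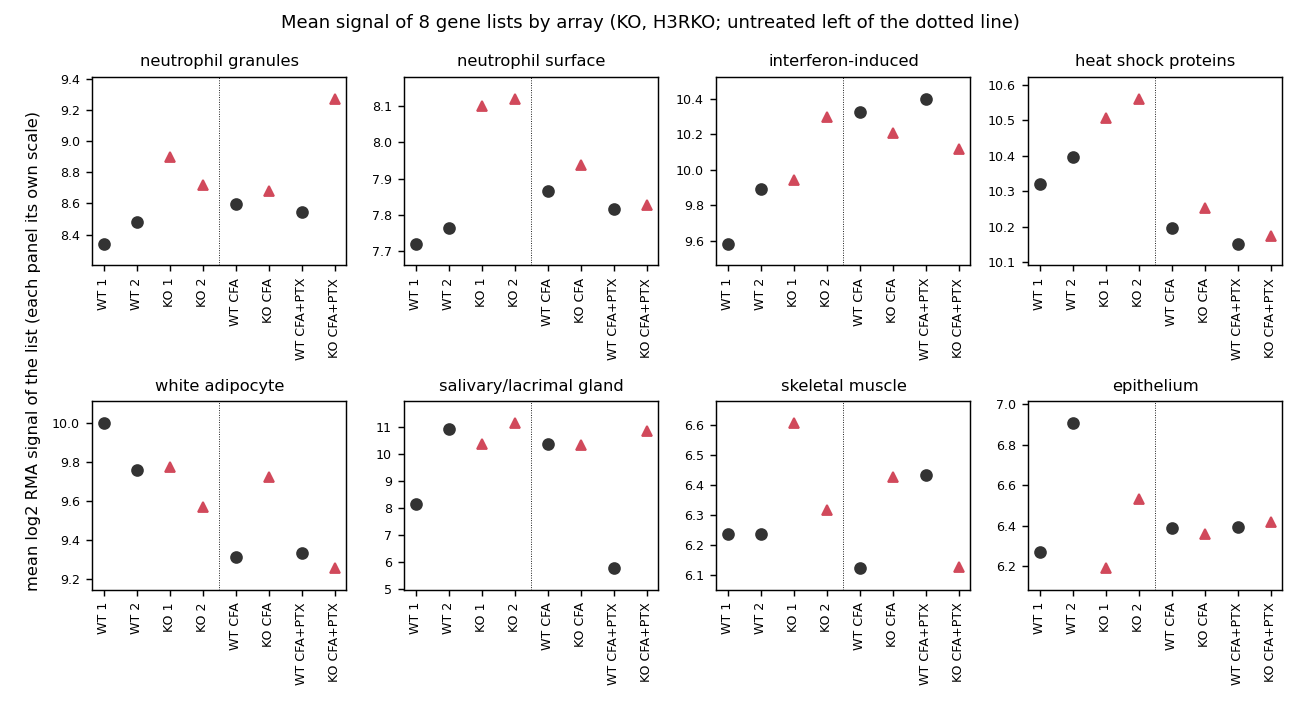
Mean log2 RMA signal (y axis, own scale per panel) of 8 gene lists in each of the 8 arrays (x axis, untreated arrays left of the dotted line), with WT as dark circles and H3RKO, written KO, as red triangles. The neutrophil, interferon and heat shock means are apart in untreated LN, whereas the white adipocyte, gland and epithelial means overlap and the muscle mean is highest in H3RKO replicate 1, at 6.61.

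Lymphocyte genes differed little. Of 18 T cell genes, 17 had a positive difference, 6 were apart and higher against 12.5% of all genes, and the median was 0.12. Lef1, a transcription factor of naive T cells, measured 8.88 and 8.51 in WT and 9.23 and 9.15 in H3RKO, a difference of 0.50, and Cd8a differed by 0.30. Without H3RKO replicate 1 the median of the list was −0.01. Of 16 B cell genes, 12 were negative, 5 were apart and lower against 20.6% of all genes, and the median was −0.04. Of 8 MHC class II genes, which present antigen to CD4+ T cells, 7 were negative and the median was −0.07. Apart and lower were 5 of the 8, against the same 20.6%.

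Cell cycle genes were nearly uniform in sign but not in their arrays. Of 32 measured, 31 had a negative difference, 7 were apart and lower, a share close to the 20.6% of all genes, and the median was −0.17. Over all 12393 genes 7085 differences were negative and 5307 positive. The kinetochore checkpoint gene Bub1b (−0.33) and the thymidylate synthase gene Tyms (−0.30) had among the larger differences. The mean of the list was 8.87 and 9.12 in WT and 8.95 and 8.70 in H3RKO, and the genotypes overlapped. The median was −0.28 without WT replicate 1, −0.04 without WT replicate 2, −0.32 without H3RKO replicate 1 and −0.03 without H3RKO replicate 2.

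Ighm, the heavy chain gene of IgM, met the criterion through some of its probe sets and not others. Of its 11 own probe sets, as paired in the annotation used, 4 passed. The study lists IGHG1 as well as IGHM as lower in untreated H3RKO LN and does not print their probe sets. Whether it read any of these 4 as IGHG1 was therefore not checked. The brightest of these, 1427870_x_at, measured 12.9 in both WT arrays and 11.6 and 11.5 in H3RKO, a difference of −1.36. That probe set differed by −1.37 after CFA and by 0.99 after CFA and PTX. The 3 brightest probe sets differed by −0.03, −0.02 and 0.30. The first of them is near the top of the signal range, with 99.969% of probe sets dimmer. Whether a difference can still be seen at that brightness was not tested. Probe sets of rearranged immunoglobulin transcripts can detect the product of single B cell clones, and the probe sets of the gene have no single direction here.

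The 2 probe sets under an adjusted p of 0.05 had no gene name in the annotation used. Probe set 1426154_s_at measured 7.97 and 8.27 in WT and 4.47 in both H3RKO arrays, a difference of −3.65 (SE 0.12, limma adjusted p = 0.0026). Probe set 1420465_s_at measured 12.46 and 12.57 in WT and 9.09 and 9.27 in H3RKO, a difference of −3.33 (SE 0.10, limma adjusted p = 0.0026). Both were low in all 4 H3RKO arrays of the series. In WT they were high except after CFA, where they measured 5.09 and 10.48. Of 4 further unnamed probe sets at the criterion, 1421134_at (−1.70), 1417867_at (−1.10) and 1427820_at (−1.0) were lower and 1442025_a_at (1.06) was higher. The study lists Mup1 and complement factor D (adipsin) as lower in untreated H3RKO LN. Its folds for them equal, after rounding, those of 1420465_s_at (10.09) and 1417867_at (2.14) here.

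The injected arrays give each untreated difference a look in other animals, with 1 array per genotype and injection and hence no test. Of all 12393 genes, 3196 (25.8%) had the untreated sign in both injected pairs. Among the 4111 apart genes it was 1001 (24.3%), no more than among all genes. Among the 22 genes that met the criterion it was 11 (50%), 5 of the 13 higher and 6 of the 9 lower, and among the 70 apart genes over 1.5-fold 27 (38.6%). Over all 8 arrays the 4 H3RKO arrays lay above the 4 WT arrays in 103 genes (0.831%) and below them in 128 (1.03%). Of the 22 genes 5 did so: S100a8, S100a9, Krt19, Dmbt1 and Tlcd4.

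Few untreated differences had the same size after injection. S100a8 differed by 1.53 untreated, by 0.18 after CFA and by 1.49 after CFA and PTX. Ngp differed by 0.22 and 1.48 after the injections, and Cd177, a neutrophil surface antigen that differed by 0.96 untreated, by 0.21 and 1.18. Fpr2 and Clec4d differed by 0.06 and 0.10 after CFA and by 0.11 and 0.18 after CFA and PTX. The difference of these differences was tested in limma over all probe sets, with the single injected arrays taken to vary like the untreated pairs. None passed an adjusted p of 0.05 in limma, and 1081 had an unadjusted p under 0.05.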

How the data were processed

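Pooled LN RNA was hybridized by the authors to Affymetrix Mouse Genome arrays, 1 pool per array. The deposited values are log2 signals after RMA, which the authors ran in Partek Genomic Suite, and no earlier step was repeated. Of 22690 probe sets, 64 controls were left out. The annotation pairs 20380 of the other 22626 with 1 gene, 691 with several and 1555 with none, giving 12393 genes. Arrays were grouped by their titles. The 6 groups each had a mean in limma 3.58.1 (R 4.3.3), and the 2 residual degrees of freedom come from the untreated arrays, with a prior of 3.58. P-values measure only the spread between these pools, and the number of arrays limits the precision. Adjusted p-values are by Benjamini-Hochberg over all probe sets.

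Named genes are Hrh3 and the histamine genes, those at the criterion, the 10 largest apart differences each way, the widest separations over 8 arrays, genes beside Hrh3, and leading genes of 31 lists of cell types, tissues and pathways. Snap25, Nefl, further list members and the genes of the plots were named after their values were seen. The comparison, lists and rules were chosen with earlier results of these data known. Promoters came from RefSeq (GRCm38.p6) and were searched in Python 3.11.15. Alternatives were no variance moderation, trend and robust variance, a replicate block, a sex score, other scaling, filters on dim and cross-hybridizing probe sets, other fold limits, and leaving out each array. The fit was tested on simulated data.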

Additional observations from a re-analysis of the deposited data

How the results depend on the processing

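The count of 22 genes at the criterion was 8 without variance moderation, 44 with the replicate block, 82 at a fold over 1.5, and 27 to 86 with 1 array left out (34 without WT replicate 1, 86 without WT replicate 2, 27 without H3RKO replicate 1, 37 without H3RKO replicate 2). Other settings gave 15 to 29. The labels number the arrays 1 and 2 in both genotypes and do not say whether arrays of the same number share anything else. The deviations of same-numbered arrays correlated at 0.123, and whether they share a batch was not tested. The 2 probe sets under an adjusted p of 0.05 were 0 without moderation (1019 at an unadjusted limma p under 0.05), 11 with trend and robust variance, 0 after cross-hybridizing probe sets were left out (1084 unadjusted), and 2 to 4 with 1 array left out. Of 22626 probe sets 7551 were apart. With 1 array left out the number was 13706 to 16346, since fewer arrays have to separate, with a separation over 0.2 it was 522, and with a difference over both replicate gaps 4877. The interaction count stayed at 0 in all alternatives run with limma (645 to 1295 at an unadjusted p under 0.05). The brightest Ighm probe set, at −0.03, turned to 0.0020 with the sex score and lay between −0.125 and 0.063 with 1 array left out. Of 304 values of 26 named genes under alternatives, 263 kept their sign and their side of the criterion, 33 lost it and 6 gained it. Of 217 list medians under alternatives, 29 turned sign, in 18 of 31 lists. With 2 pools a genotype, colony, pool and genotype cannot be told apart.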

Other observations

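Among 23 genes of stromal cells and high endothelial venules the median difference in untreated LN was 0.03, with 4 apart and higher, the pericyte receptor gene Pdgfrb (0.30) among them, and 3 apart and lower. Of 14 erythroid and platelet genes 4 were apart and higher and 2 apart and lower, Klf1 (−0.18) and Treml1 (−0.16), with a median of 0.04. For both lists the shares over all genes were 12.5% apart and higher and 20.6% apart and lower. The platelet chemokine gene Ppbp measured 4.65 and 4.63 in WT and 5.11 and 5.34 in H3RKO, a difference of 0.59. Ppbp differed by 1.5 after CFA and by 2.31 after CFA and PTX, so the H3RKO array was higher in each pair.

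Genes under glucocorticoid control had a median of −0.02 over 15 members, with Mt2 (1.10) and the transcription factor gene Zbtb16 (0.89) at the upper end. Clock genes had a median of −0.05 over 17, immediate early genes 0.02 over 22, regulatory T cell and activation genes −0.03 over 16, cytotoxic and natural killer genes 0.04 over 13, and plasma cell and germinal centre genes 0.09 over 13.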
